A study of Mus musculus with 4 samples.

Results

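The genes described here encode proteins of the junctions that join neighbouring cells. They are the claudin genes Cldn2, Cldn4 and Cldn19 of the tight junction and Nectin3, Afdn, Ctnnd1, Cadm1 and Ptprm of the adherens junction and related adhesion contacts, 8 of 10925 gene names with a transcription start site (TSS) in the region tables. Within 1 kb of their TSS a region of histone H3 lysine 27 acetylation (H3K27ac) was listed in regenerating liver and none in sham-operated liver. At Cldn19, Ctnnd1 and Cadm1 a region of sham-operated liver lay inside that region, further downstream. The genes were chosen by name with their promoter state in these tables known, so that state and the widths below are a description and were not tested. H3K27ac was profiled by CUT&Tag, in which an antibody tethers a DNA-cutting transposase to the marked chromatin, in liver of C57/BL6J mice, given as wild type in the design text. The groups were liver 12 h after removal of 70% of the organ (PHx 12 h, 2 libraries) and liver of sham-operated mice (2 libraries). No age or sex is given in the sources used here, no hour is given for the sham libraries and the design text speaks of 0 h, so hepatectomy cannot be told apart from time after surgery. The deposited tables hold 1 merged list of regions per group and no signal, which leaves the depth unknown and allows neither an error between replicates nor a p-value. The labels do not say whether libraries 1 and 2 of a group came from separate mice.

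Tight junctions seal the space between epithelial cells: claudins span the membrane and decide which ions pass, and in liver they separate bile in the canaliculus from blood. Adherens junctions lie beside them. There cadherins, held at the membrane by catenins, bind cadherins on the next cell. Nectins, held by afadin, bind nectins on the next cell, and both anchor the actin belt. H3K27ac is found at active promoters and enhancers.

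The promoters of the 3 claudins and of the adherens genes among the 8 had different base composition, which played no part in choosing the genes. RefSeq promoter sequences (GRCm38.p6, a build other than that of the tables) were found by symbol for 7 of the 8 genes. They run from 250 bases before the start to 50 bases after it. The ratio of observed to expected CpG dinucleotides was 0.16 at Cldn19, 0.27 at Cldn2 and 0.32 at Cldn4, against 0.87 at Ctnnd1, 0.88 at Ptprm, 1.06 at Nectin3 and 1.19 at Afdn. With the most upstream entry of each gene, the claudin values thus did not overlap those of the adherens genes. Over 5703 protein-coding genes with a TSS in the tables and a promoter entry, the median was 0.754 (quartiles 0.52 and 0.908), and 30.8% lay below 0.6. For the 836 of these with a region at the start in PHx 12 h only, as at the members, the median was 0.707. Their quartiles were 0.362 and 0.885, and 39.6% lay below 0.6. All 8 claudins with a TSS in the tables and a promoter entry, the members included, had a median of 0.338, and 7 of them lay below 0.6. The low ratios did not extend to the tight junction list at large, whose 23 other genes with an entry had a median of 0.702, with 30.4% below 0.6. Of the 26 other adherens junction genes with a listed TSS only 19 had an entry. Their median was 0.705, with 21.1% below 0.6. Without the members the tight and adherens lists thus had similar medians, and the adherens members lay above the median of their own list. Ctnnd1 has 2 entries and Cldn19 has 2. The most upstream was used, and the downstream entry of Ctnnd1 had a ratio of 0.23, which lies within the range of the claudins. The 150 bases just before the start are shown for the 3 claudins and for 3 of the adherens genes, in the direction of transcription, with each CpG in capitals, to let this contrast be read directly.
Cldn2, chrX:139800658-139800807, forward strand: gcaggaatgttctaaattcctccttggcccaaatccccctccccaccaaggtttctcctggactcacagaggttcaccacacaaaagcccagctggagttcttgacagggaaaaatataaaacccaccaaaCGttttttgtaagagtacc
Cldn4, chr5:134946935-134947084, reverse strand: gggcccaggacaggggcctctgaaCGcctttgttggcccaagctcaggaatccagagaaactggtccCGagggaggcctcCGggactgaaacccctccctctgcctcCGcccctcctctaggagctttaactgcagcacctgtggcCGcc
Cldn19, chr4:119255291-119255440, forward strand: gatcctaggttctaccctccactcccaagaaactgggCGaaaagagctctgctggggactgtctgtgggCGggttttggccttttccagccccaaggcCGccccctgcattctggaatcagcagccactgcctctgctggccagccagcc
Nectin3, chr16:46496968-46497117, reverse strand: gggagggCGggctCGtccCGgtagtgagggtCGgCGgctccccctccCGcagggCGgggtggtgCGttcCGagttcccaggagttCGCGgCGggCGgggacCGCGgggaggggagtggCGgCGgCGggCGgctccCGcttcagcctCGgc
Afdn, chr17:13760391-13760540, forward strand: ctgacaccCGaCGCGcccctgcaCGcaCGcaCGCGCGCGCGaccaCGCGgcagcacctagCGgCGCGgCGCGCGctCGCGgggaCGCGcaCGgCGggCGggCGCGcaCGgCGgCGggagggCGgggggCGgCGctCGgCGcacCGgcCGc
Ptprm, chr17:67354460-67354609, reverse strand: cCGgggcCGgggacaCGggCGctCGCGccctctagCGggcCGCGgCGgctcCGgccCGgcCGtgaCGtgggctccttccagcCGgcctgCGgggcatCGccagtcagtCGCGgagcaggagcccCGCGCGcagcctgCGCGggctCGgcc

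**Figure D1:**
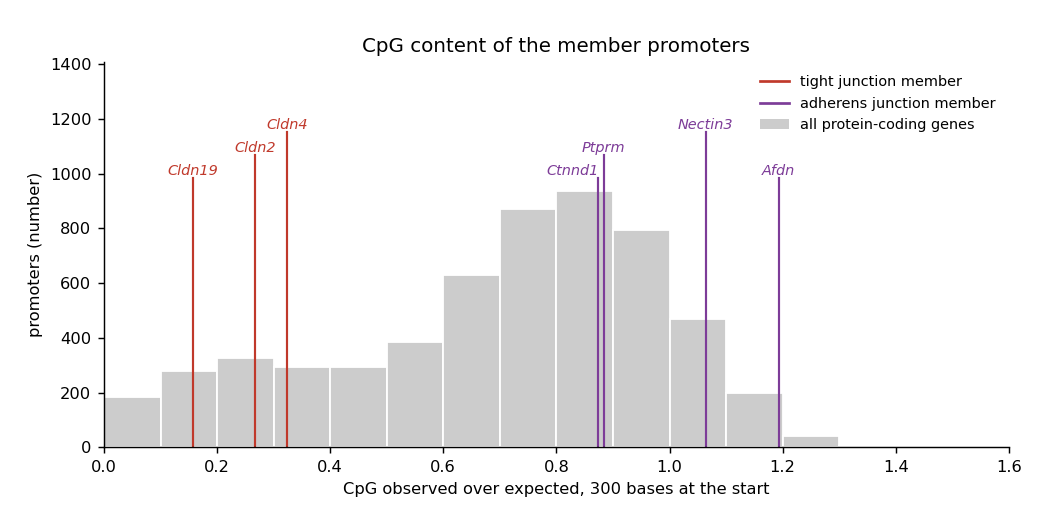
The horizontal axis gives the observed over expected CpG ratio in 300 bases at the gene start, and grey bars count the 5703 protein-coding promoters. Lines mark the 3 claudins, between 0.16 and 0.32, and the adherens genes with an entry, between 0.87 and 1.19. Each line shows the most upstream entry of its gene.

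A search for 6 short motifs on both strands of the same 300 bases gave few matches outside the GC box. No motif contains the letters of another. The GC box GGGCGG was present at 5 of 7 genes, with 5 matches at Nectin3 and 4 at Afdn, and in 64.5% of all 5703 promoters. TATAAA matched only at Cldn2, at position -35 with the start base at 0, and in 7.63% of all promoters. TGANTCA, the letters bound by AP-1, matched only at Cldn4, at positions -240 and -158, and in 5.45% of all. CAGGTG, an E-box, also matched only at Cldn4, against 17.4% of all, and CATTCC, the TEAD letters, only at Cldn2, against 12.7%. TTNNGCAA, the C/EBP letters, matched at 0 of 7 genes and in 8.14% of all promoters. These are matches of letters in one window and describe no binding.

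A promoter was called marked when a listed region overlapped the TSS ± 1 kb, the TSS being the most upstream start given for the gene in either table. By this definition 8 of 8 genes were marked in PHx 12 h only, which is how they were chosen. The background over 7090 protein-coding genes whose TSS the tables give was 15.4% in PHx 12 h only and 9.79% in sham only. A TSS is given only for genes to which a region of either group was assigned. All shares over genes with a listed TSS thus rest on this filter and are not rates over all protein-coding genes. With regions of at least 5 kb alone, the counts behind these shares moved to 1656 in PHx 12 h only, against 1091, and to 455 in sham only, against 694. In bulk tissue a larger number of cells of a type and more acetylation per cell cannot be told apart. The regions at the 8 promoters were 8082 to 41089 bp wide, with a median of 20014 bp. The median over all 1091 protein-coding genes marked in PHx 12 h only was 13403 bp. All coordinates of regions are on GRCm39, the build named in the submitters' processing notes.

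Cldn2, a pore-forming claudin that passes small cations and water, lies on chromosome X (forward strand, TSS 138706831). Its PHx 12 h region spanned 12407 bp (138705194 to 138717600) and reached 1637 bp upstream and 10769 bp downstream of the TSS. The gene of 5305 bp lay wholly inside it. No sham region was listed within 100 kb, and the nearest began 696410 bp away. A second PHx 12 h region of 13367 bp, at the promoter of Ripply1, ended 18846 bp upstream and likewise had no overlapping sham region. Cldn2 was the only claudin of the 3 with no sham region in its window.

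Cldn4, a claudin that tightens the barrier in many epithelia, lies on chromosome 5 (reverse strand, TSS 134975788). It had a PHx 12 h region of 14036 bp (134969035 to 134983070) that covered the whole gene of 1812 bp, with 7282 bp upstream and 6753 bp downstream of the TSS. Here the neighbourhood was marked in both groups. The promoter of the next claudin gene, Cldn3, had a region of 23869 bp in PHx 12 h and of 16964 bp in sham, and the sham region lay 32509 bp from the Cldn4 TSS. The promoter of Abhd11 had 8239 bp in PHx 12 h and 4914 bp in sham. A distal intergenic region on the other side, assigned to Tmem270, measured 15213 bp in PHx 12 h and 7757 bp in sham. At Stx1a an exonic region of 13105 bp was listed in PHx 12 h and had no sham region overlapping it. Of the regions within 100 kb, those at Cldn4 itself and at Stx1a were thus the PHx 12 h regions without a sham counterpart.

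Cldn19, a claudin best known from the kidney tubule and from myelinating cells, lies on chromosome 4 (forward strand, TSS 119112638). Its PHx 12 h region spanned 27234 bp (119096953 to 119124186), with 15685 bp upstream and 11548 bp downstream of the TSS, and took in the whole gene of 6998 bp. A sham region of 7061 bp (119114727 to 119121787) lay inside it and began 2089 bp downstream of the TSS. That sham region covered 70.15% of the gene and was assigned by the authors to the promoter of Gm12927, a long non-coding RNA gene on the opposite strand whose start lies 1532 bp from that of Cldn19. The Gm12927 promoter was marked in both groups. The difference at Cldn19 is therefore the reach of a region over its start and not the presence of a region at the locus, and with a window of 3 kb the gene counted as marked in both groups. Upstream, the PHx 12 h list had 1 region of 17450 bp at AU022252 where the sham list had 2, of 5894 and 5169 bp. A sham region of 8454 bp at Zfp691 had no overlapping PHx 12 h region.

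Nectin3, an immunoglobulin-like adhesion receptor that pairs with other nectins across the cell border, had the narrowest of the 8 regions. It lies on chromosome 16 (reverse strand, TSS 46316918), and its PHx 12 h region measured 8082 bp (46313073 to 46321154). The region was placed almost evenly, with 4236 bp upstream and 3845 bp downstream, and covered 3.532% of the 108891 bp gene. No other region of either group was listed within 100 kb, and the nearest sham region lay 484019 bp away.

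Afdn encodes afadin, which ties the tails of nectins to actin. On chromosome 17 (forward strand, TSS 13980735) it had a PHx 12 h region of 33567 bp (13957529 to 13991095), which extended 23206 bp upstream and 10360 bp into the gene. The start of Tcte2, on the opposite strand 930 bp away, lay in the same region, so that the region cannot be assigned to either gene alone. The nearest sham region ended 38179 bp upstream of Afdn. Further upstream a single PHx 12 h region of 50967 bp, assigned to Gm24867, lay over 3 sham regions of 9278, 11390 and 11275 bp. Within the gene, 56972 bp from the TSS, a PHx 12 h region of 13083 bp, which the authors assigned to Tcte2, lay over 2 sham regions of 5494 and 5720 bp. The body of Afdn was thus marked in both groups, 16.13% of it in PHx 12 h and 7.717% in sham, and its start in PHx 12 h only.

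Ctnnd1 encodes the delta catenin that binds the inner part of cadherins next to the membrane and keeps them from being taken up. It lies on chromosome 2 (reverse strand, TSS 84480345) and had the widest of the 8 regions, 41089 bp in PHx 12 h (84444069 to 84485157). This region reached 36276 bp into the gene and 4812 bp upstream. A sham region of 25870 bp (84448193 to 84474062) lay wholly inside it and stopped 6283 bp short of the most upstream TSS. The authors annotated that sham region as 5' UTR of Ctnnd1. The call of PHx 12 h only holds for the listed starts of Ctnnd1. Its downstream promoter entry was not placed on GRCm39, so a sham region at that start was not checked. On GRCm38.p6 the upstream entry ended at 84659227 and the downstream entry at 84650990, both on the reverse strand. If the upstream entry marks the TSS used here and this spacing held on GRCm39, the downstream start would lie inside the sham region. Regions covered 57.67% of the gene in PHx 12 h and 41.12% in sham. The upstream neighbours Zdhhc5 (7238 bp in PHx 12 h and 5911 bp in sham) and Clp1 (26792 bp in PHx 12 h and 20680 bp in sham) had promoter regions in both groups.

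Cadm1 encodes an immunoglobulin-like adhesion molecule of the lateral membrane, and lies on chromosome 9 (forward strand, TSS 47527977). Its PHx 12 h region of 21959 bp (47528016 to 47549974) began 39 bp downstream of the TSS. With the TSS base alone in place of the window, Cadm1 counted as marked in neither group. A sham region of 10443 bp (47533395 to 47543837) lay inside the PHx 12 h region, in an intron, 5418 bp from the TSS. Both groups thus had a region in the same part of the gene, and no other was listed within 100 kb.

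Ptprm encodes the receptor tyrosine phosphatase mu, which binds its own kind on the next cell and associates with cadherins. It lies on chromosome 17 (reverse strand, TSS 67661454), with a PHx 12 h region of 18069 bp (67645757 to 67663825) that reached 2371 bp upstream and 15697 bp into the 687612 bp gene. No other region was listed within 100 kb in either group. Far inside the gene, 464061 bp from the TSS in PHx 12 h, an intronic region assigned to LOC115488805 measured 17103 bp in PHx 12 h and 6202 bp in sham.

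**Figure D2:**
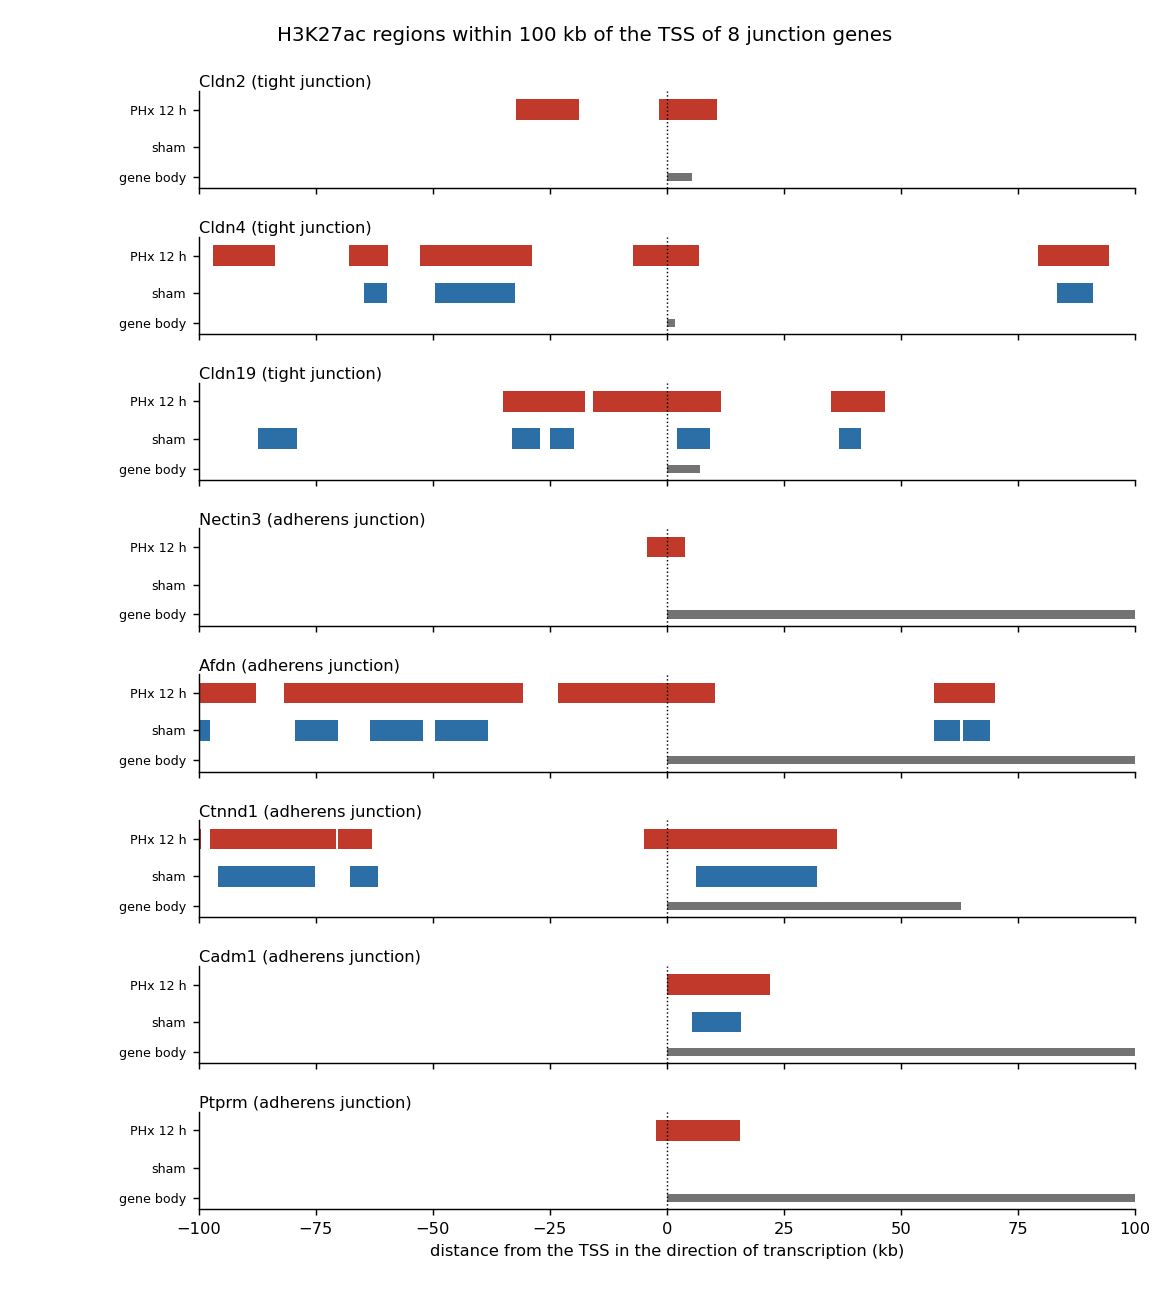
The horizontal axis gives distance from the TSS in kb in the direction of transcription, cut at 100 kb on either side. PHx 12 h regions are red, sham regions blue and the gene body grey, 1 panel per gene; 21 PHx 12 h and 18 sham regions are drawn, and no sham bar touches a dotted TSS line.

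The 8 loci fell into those with and those without sham regions around the promoter. At Cldn19, Ctnnd1 and Cadm1 a sham region lay inside the PHx 12 h promoter region, filling 25.9%, 63.0% and 47.6% of its length. At Cldn2, Cldn4, Nectin3, Afdn and Ptprm no sham region overlapped it. These 5 of 8 can be set beside 69.4% of the 1091 protein-coding genes marked in PHx 12 h only. The nearest sham region lay over 100 kb from the TSS at 3 of the 8 genes (Cldn2, Nectin3 and Ptprm), and at 21.3% of those 1091. Both tight and adherens genes occurred on either side of this division, with 2 of 3 claudins and 3 of 5 adherens genes lacking an overlapping sham region.

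Counted over the windows of 100 kb on either side, the members had 21 PHx 12 h regions with 390 kb of covered length, against 18 sham regions with 169 kb. The 3 claudin windows held 10 PHx 12 h regions (156 kb) and 8 sham regions (60.9 kb). The 5 adherens windows held 11 PHx 12 h regions (233 kb) and 10 sham regions (108 kb). The median per gene was 41.01 kb in PHx 12 h and 20.04 kb in sham. Over all 7090 protein-coding genes it was 51.5 kb in PHx 12 h and 30.9 kb in sham, and for the 1091 marked in PHx 12 h only it was 44.6 kb in PHx 12 h and 17.7 kb in sham. Away from the members' own promoters, 13 PHx 12 h and 18 sham regions were listed, of which 4 in PHx 12 h and 9 in sham lay outside any promoter by the authors' annotation. Of these non-promoter regions 1 in PHx 12 h, at Stx1a, and 0 in sham had no overlap with the other group. The farthest region inside the window was a PHx 12 h region at Serping1, 99526 bp from Ctnnd1, and the nearest one outside was a sham region at the same gene, 105885 bp away.

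**Figure D3:**
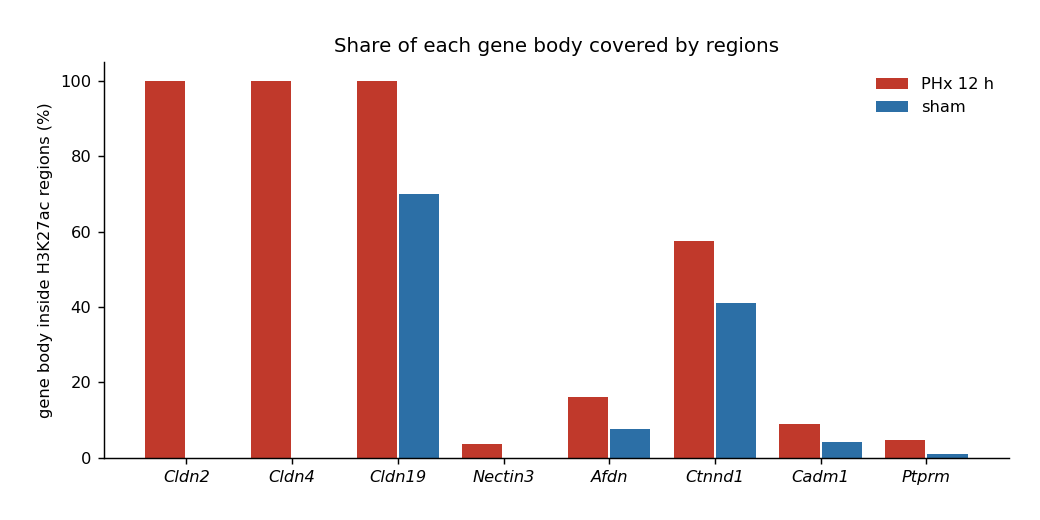
Bars give the percentage of each gene body inside regions, PHx 12 h left in red and sham right in blue. The 3 short claudin genes are at 100% in PHx 12 h, whereas in sham only Cldn19, at 70.15%, and Ctnnd1, at 41.12%, exceed 10 percent.

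The sham peaks give a limit on each of these absences. A merged region needs a peak of each library, and peak numbers run in genomic order, so numbers missing between 2 neighbouring listed regions belong to peaks of that library outside the list. In the sham stretch around each of the 8 promoters at least 1 such number was missing. Both sham libraries had missing numbers at Cldn2, Cldn4, Afdn and Ctnnd1, library 2 alone at Cldn19, Nectin3 and Cadm1, and library 1 alone at Ptprm. Cldn4, for example, had 3 missing numbers of library 1 and 1 of library 2 in a stretch of 115883 bp. Among all 1091 genes marked in PHx 12 h only, 89.2% had a missing number of at least 1 sham library and 44.4% of both, beside 4 of the 8 members. A peak in a single sham library at these promoters can therefore not be told apart from none. In the PHx 12 h regions, library 1 contributed 1 peak at all 8 genes, and library 2 contributed 2 at Afdn, Cadm1 and Ptprm and 1 at the others.

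Of all 7090 protein-coding genes, 66.0% were marked in both groups, and the other genes of these junctions can be set beside that share. The tight junction list had 29 genes with a listed TSS out of 54, and the adherens junction list 31 out of 47. No region of either group was assigned to the remaining genes by name, so their state was not read. The shares below cover only genes to which a region was assigned. Without the members, 16 of 26 tight junction genes (61.5%) were marked in both groups, 3 in PHx 12 h only (11.5%) and 2 in sham only (7.69%). Of 26 adherens junction genes without the members, 22 (84.6%) were marked in both, 2 in PHx 12 h only (7.69%) and 0 in sham only. With the members the shares in PHx 12 h only were 20.7% in the tight and 22.6% in the adherens list. The members had been chosen for that state, so their presence raises these shares and their removal lowers them, and neither share was read against the background of 15.4%.

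Among tight junction genes in PHx 12 h only were Amotl1 (17778 bp), an angiomotin-like scaffold, Arhgef18 (14070 bp), a guanine nucleotide exchange factor at the apical junction, and Ybx3 (9967 bp), a nucleic acid binding protein that docks at tight junctions. In sham only were the scaffold gene Magi1 (7519 bp) and Arhgef2 (6242 bp), another exchange factor. F11r, which encodes a junctional adhesion molecule, had 25664 bp in PHx 12 h and 8889 bp in sham. At the low end Ocln, which encodes occludin, had 13255 bp in PHx 12 h and 24202 bp in sham, and the polarity kinase gene Prkci had 7953 bp in PHx 12 h and 8150 bp in sham. Ocln and Prkci were the 2 tight junction genes with a narrower region in PHx 12 h.

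In the adherens list Cadm4 (15830 bp), a relative of Cadm1, and Cdh5 (14699 bp), the endothelial cadherin, were marked in PHx 12 h only. Actn1, an actin crosslinker, had 54946 bp in PHx 12 h and 4006 bp in sham. Ablim1 had 10795 bp in PHx 12 h and 15498 bp in sham, and the alpha catenin gene Ctnna1 had 9607 bp in PHx 12 h and 10571 bp in sham. The central pair of the epithelial adherens junction was marked in both groups, Cdh1 (E-cadherin) with 54619 bp in PHx 12 h and 11068 bp in sham, and Ctnnb1 (beta catenin) with 39559 bp in PHx 12 h and 7589 bp in sham. Cdh1 and Ctnnb1 fall outside the rule for named genes and were chosen after their values were seen, as partners of Ctnnd1.

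Among genes marked in both groups, the median width ratio of PHx 12 h over sham was 1.54 for 16 tight junction genes and 1.78 for 22 adherens junction genes, beside 1.72 for 4682 protein-coding genes. The region was over 1.5 times as wide in PHx 12 h at 8 of 16 and 15 of 22, against 59.6% of the 4682. Region widths differed as a whole, with a median of 14551 bp in PHx 12 h and 8153 bp in sham, a log2 difference of 0.84. Divided by these medians the ratios were 0.863 for the tight list, 0.999 for the adherens list and 0.963 for all genes, so that relative to its group neither list was wider in PHx 12 h. Desmosomes, which anchor intermediate filaments, and gap junctions, which connect cytoplasms, were covered thinly. Of 8 desmosome genes, 6 were marked in both groups and Pkp1 (12375 bp) in PHx 12 h only. The median ratio of the 6 was 1.40, with Dsc2 (11708 bp in PHx 12 h and 5373 bp in sham) and Dsp (6373 bp in PHx 12 h and 3827 bp in sham) highest and Pkp4 and Perp lowest (1.29 and 1.27). Of the gap junction genes, the connexin genes Gjb1 (20325 bp in PHx 12 h and 8635 bp in sham) and Gjb2 (27382 bp in PHx 12 h and 10063 bp in sham) were marked in both groups. Gja4 (16959 bp), a connexin of vessels, was marked in PHx 12 h only.

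**Figure D4:**
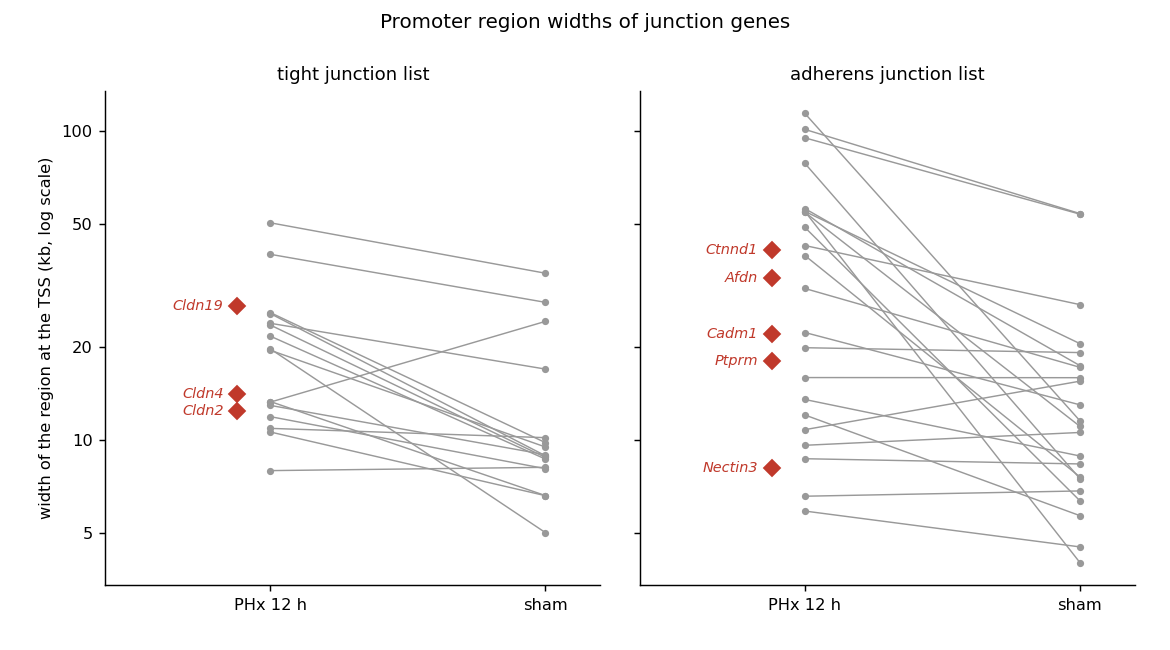
The vertical axis gives the width of the region at the TSS in kb on a log scale. Grey lines join PHx 12 h (left) and sham (right) for genes marked in both groups, 16 in the tight and 22 in the adherens list; red diamonds are the 8 members, which have no sham region at the TSS and span 8.1 to 41.1 kb.

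**Figure D5:**
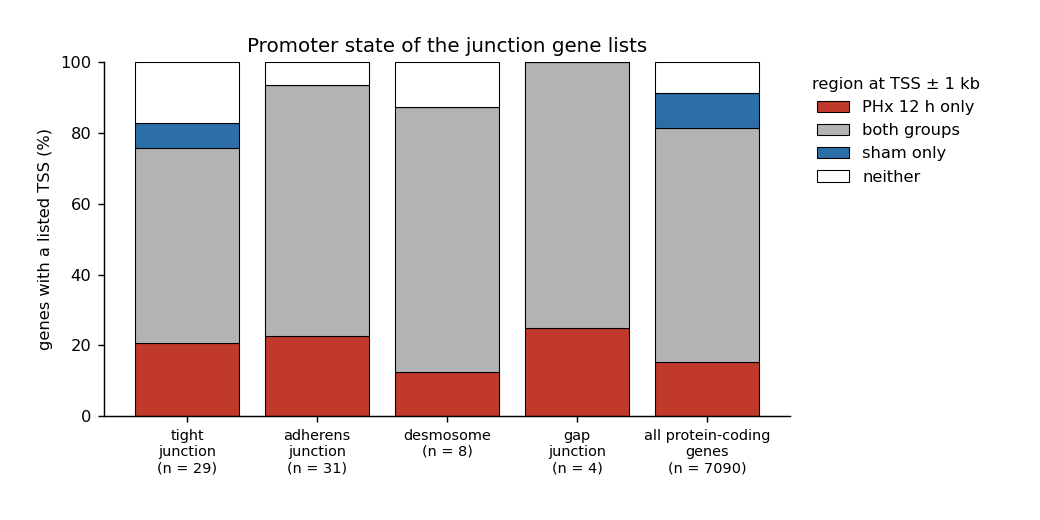
Bars give the percentage of genes with a listed TSS in each promoter state for the 4 junction lists, the members included, and for all 7090 protein-coding genes. PHx 12 h only makes up 20.7% of the tight and 22.6% of the adherens list, which hold the 8 members, and 15.4% of all genes. The members were chosen for that state. Without them, which is not drawn, the shares are 11.5% in the tight and 7.69% in the adherens list.

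Markers of the cell types of liver were read from the same tables. A TSS was listed for 10 of 12 hepatocyte, 9 of 12 endothelial and 3 of 8 Kupffer cell markers. For stellate cells it was listed for 2 of 8 markers, for cholangiocytes for 1 of 10, and for other tissues for 1 of 8 genes. No region of either group was assigned to the others by name, and the counts below leave them out. Of the 10 hepatocyte markers whose TSS was given, 9 had a region there in both groups, Alb with 18025 bp in PHx 12 h and 10096 bp in sham, and Cps1 in PHx 12 h only. Of 9 endothelial markers 5 (55.6%) were in PHx 12 h only (Pecam1, Cdh5, Erg, Lyve1 and Clec4g), beside 15.4% of all protein-coding genes. Another 2 were in both (Esam and Cldn5), 2 in neither (Stab2 and Vwf) and 0 in sham only. Each of the 5 had missing peak numbers of at least 1 sham library. Csf1r of the 3 Kupffer cell markers and Colec11 of the 2 stellate cell markers with a TSS were also in PHx 12 h only. The others with a listed TSS in these lists were in both. Sox9 was the 1 cholangiocyte marker with a listed TSS, and was marked in both groups. Snap25, the 1 gene of other tissues with a TSS, was marked in neither. Ptprm and Cdh5 are known from endothelium and Cldn4 from bile duct epithelium, and the part of such cells in the values above was not tested.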

How the data were processed

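H3K27ac CUT&Tag libraries of mouse liver (2 PHx 12 h, 2 sham, grouped by the treatment label) were deposited as 1 annotated table of merged regions per group. Per the submitters' processing notes Bowtie2, SEACR, ChIPseeker and DiffBind were used on GRCm39 (mm39). No version, role or threshold is stated in these notes. The deposited columns hold, per the file headers, positions and widths in bp, annotation classes and distances to a TSS, plus the names of the joined peaks. No signal or count is given, so depth and its precision are unknown and 0 p-values were computed. Each merged region reaches from its first peak to its last, so broader peak calls give wider regions and reach more TSSs.

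Tables were processed with Python 3.11.15, pandas 2.3.3 and numpy 2.4.6. The members and lists were chosen with earlier results of these data known. Regions overlapping by at least 1 bp counted as shared. The code was tested on simulated data. Biotypes came from a RefSeq gene table of GRCm38.p6, used for names only, where 264 of 10925 names found no match, and promoters from the RefSeq table of the same build. Genes outside the members were named by a rule: in each junction list up to 4 of each one-group state by width, and the 2 largest and 2 smallest width ratios, with genes starting inside a member's promoter region named as neighbours. Some genes that this rule names are not reported here. Alternatives were the TSS base, a 3 kb window, any listed TSS, regions of at least 5 kb, absence only without missing peak numbers, other width measures, a 50 kb window and 50% reciprocal overlap. Lists from GO terms in the tables were added after the data were seen.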

Additional observations from a re-analysis of the deposited data

How the results depend on the processing

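The 8 members in PHx 12 h only became 7 with the TSS base alone (Cadm1 then in neither) and 7 with a 3 kb window (Cldn19 then in both), and stayed 8 with any listed TSS and with regions of at least 5 kb. With that last setting the background moved to 1656 protein-coding genes in PHx 12 h only, against 1091, and to 455 in sham only, against 694. Where absence from sham was accepted only without missing sham peak numbers, 0 of the 8 were left, with 1 gene in PHx 12 h only and 0 in sham only in the tight list and 0 in PHx 12 h only in the adherens list. That setting left 111 protein-coding genes in PHx 12 h only and 100 in sham only. The sham-only count of the tight list was 1 with the TSS base and 1 with any listed TSS, against 2. Leaving out the members gave 3 tight and 2 adherens genes in PHx 12 h only, which follows from their choice. Lists from the tables' GO terms, which hold more genes, gave 16 in PHx 12 h only and 7 in sham only for the tight junction (of 73), and 13 in PHx 12 h only and 4 in sham only for the adherens junction (of 70). Without the members these lists had 16.2% (tight) and 13.6% (adherens) in PHx 12 h only. The median width ratio of the tight list was 1.54. It was 1.435 for summed length within 10 kb of the TSS and 1.742 with GO terms, and turned to 0.863 when widths were divided by the group median. That of the adherens list was 1.78, and 1.225, 1.544 and 0.999 in the same settings. The order of the 2 lists thus turned with GO terms and with summed length. A window of 50 kb held 13 PHx 12 h and 8 sham regions, by construction fewer. With 50% reciprocal overlap, 8 of 13 PHx 12 h and 12 of 18 sham regions away from the TSS had no partner. With any overlap the counts were 2 in PHx 12 h and 1 in sham. The order of the counts thus turned, but the totals differ, so it was not read as a difference between the groups. The cause was not tested. Leaving out a replicate could not be run, since the tables give no values per library. No paired analysis was possible because each group has 1 merged column set. Depth is unknown, and absence from a list is no proof of absence from both libraries.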

Other observations

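Cldn2 lay in a stretch of 36.5 Mb of chromosome X without any sham region, which held 3 whole PHx 12 h regions. The whole of chromosome X had 50 PHx 12 h and 30 sham regions, whereas the autosomes carrying members had 377 to 782 PHx 12 h and 442 to 903 sham regions each. In this stretch 1 peak number of sham library 1 and 6 of sham library 2 were missing from the list. Nectin3 lay in a sham stretch of 3.84 Mb with 3 whole PHx 12 h regions, and Ptprm in one of 1.40 Mb with 1, its own promoter region.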
